A study of Mus musculus with 4 samples.

Results

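The Hox genes of adult mouse tibialis anterior (TA) muscle were measured by mRNA-seq. The members were taken by symbol, as Hoxa, Hoxb, Hoxc or Hoxd followed by a number, among the loci that carried a value in every sample. This gave 39 Hox genes of 20697 gene symbols, listed in 43 loci and summed to 38 values, since Hoxa5 and Hoxa6 share 1 locus. TA muscle, a flexor of the ankle at the front of the lower hindlimb, was taken from wild-type C57BL/6 mice, with no transgene or treatment named, aged 3 months (Young 1 and Young 2) or 20 months (Old 1 and Old 2). The methods give the sex of the mice as randomly selected, and nothing in the labels says whether a sample was 1 animal, so that p-values measure only the spread between these samples, which may be technical. No value here shows whether the dissection was the same at both ages, so that age and dissection cannot be told apart.

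Hox genes encode homeodomain transcription factors and lie in 4 clusters, HoxA to HoxD. Genes at one end of a cluster (the low numbers) are used towards the head and genes at the other end (the high numbers) towards the tail and, in limbs, towards the digits. Genes of the same number in different clusters are paralogs with overlapping roles. In limb development the paralogs numbered 9 and 10 are known for the upper limb, those numbered 11 for the forearm and lower leg, and those numbered 13 for the hand and foot, while Hoxc10 and Hoxc11 are used in the hindlimb and not the forelimb. Cells of adult connective tissue and muscle retain part of this pattern, so the Hox genes of a muscle can be read as a record of the place it came from. The question here was which paralogs TA muscle expressed, and whether old and young samples carried the same set.

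Expression levels are given as FPKM, sequenced fragments per length of transcript relative to the total mapped, which the authors computed separately for each sample. The samples differed in scale in a way that age did not explain. Summed FPKM was 698130 and 226747 in Old 1 and Old 2, and 251294 and 739302 in Young 1 and Young 2. Of 20605 loci, 5223 and 5335 were listed at 0 in the samples with the higher sums (Old 1, Young 2) and 9558 and 9452 in the others (Old 2, Young 1). Old 1 was therefore set beside Young 2, and Old 2 beside Young 1, and these are called like-scale pairs. Between genes at 10 to 100 FPKM the median ratio of Old 1 to Old 2 was 1.97, and it was 5.44 between genes at 0.1 to 1 FPKM. The same ratios of Young 2 to Young 1 were 1.95 and 5.13. Within the like-scale pairs, the median difference over the 10266 genes tested was -0.01 and 0.0 on the log2(FPKM + 1) scale. Muscle genes were abundant in every sample (Mylpf, a fast myosin light chain, was at 4152 to 22820 FPKM), but Ckm, muscle creatine kinase, was listed at 0 in all 4 samples, so a value of 0 may be a failed estimate and is written as listed at 0.

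TA muscle expressed most of HoxA, the larger part of HoxC led by Hoxc10, a few HoxD genes and next to nothing of HoxB. A gene was counted as expressed at 1 FPKM or more in at least 2 samples, and 19 of the 39 Hox genes passed, with 18 values. They were 9 of 11 genes of HoxA, 0 of 10 of HoxB, 6 of 9 of HoxC and 4 of 9 of HoxD. This set does not hold for every sample, since only 8 Hox genes reached 1 FPKM in all 4. Hoxd9 and Hoxd10 passed through the old samples alone. Hoxa3, Hoxa4, the Hoxa5 and Hoxa6 locus, Hoxa11, Hoxc5 and Hoxd4 passed through Old 1 and Young 2 alone. Another 8 genes were listed at 0 in all 4 samples, namely Hoxb1, Hoxb13, Hoxc12, Hoxc13, Hoxd1, Hoxd11, Hoxd12 and Hoxd13. The gene with the highest level in 4 of 4 samples was Hoxc10. The group 10 paralogs (Hoxa10, Hoxc10 and Hoxd10) held 37.7% and 52.5% of the summed Hox FPKM in Old 1 and Old 2, and 61.2% and 38.5% in Young 1 and Young 2. Paralogs 12 and 13 held 1.99% to 3.79%, all of it from Hoxa13.

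**Figure D1:**
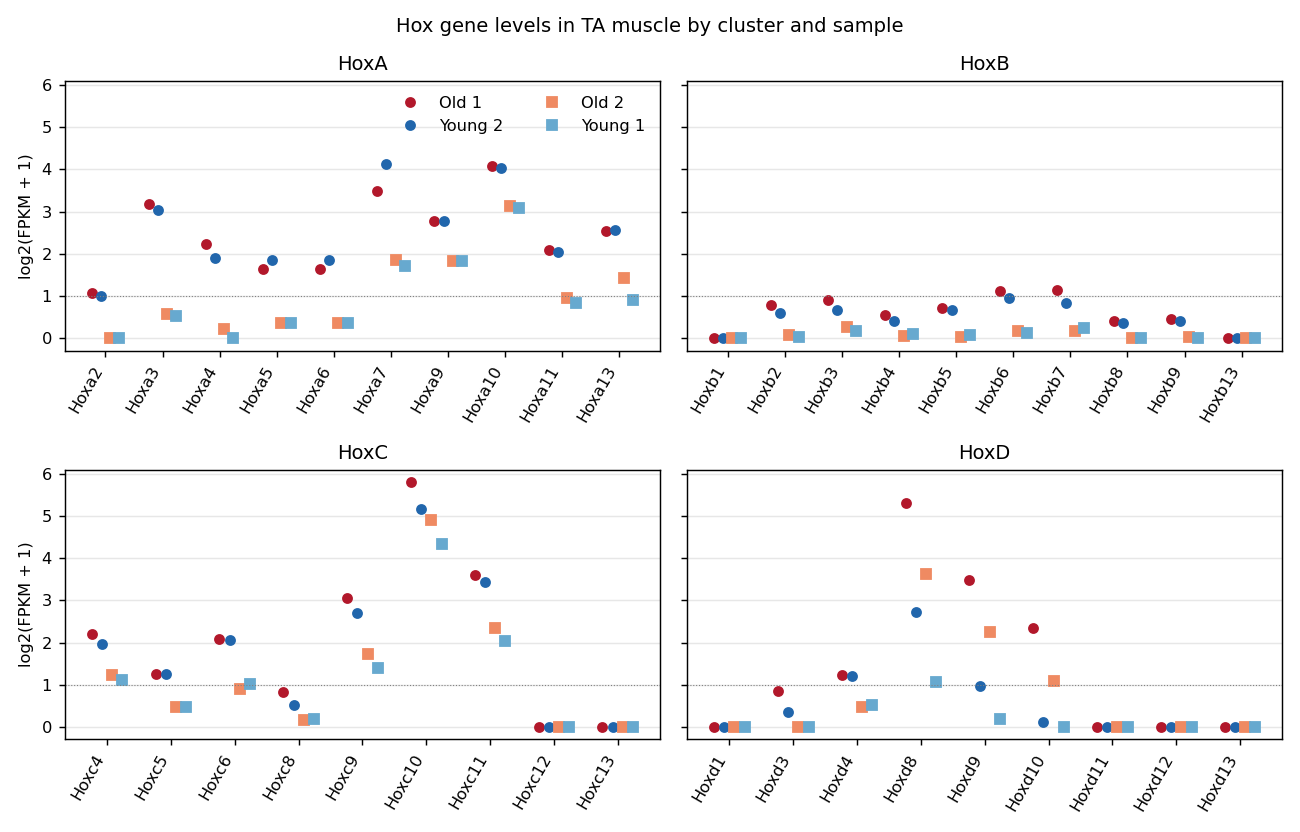
Levels of the Hox genes reported on the log2(FPKM + 1) scale (y axis) by gene (x axis), with 1 panel per cluster and 1 point per sample. Hoxa5 and Hoxa6 show the same shared value, and the dotted line marks 1 FPKM. Old 1 and Young 2 (circles) lie close together at nearly every gene, as do Old 2 and Young 1 (squares), and both old samples stand above both young samples at Hoxd8, Hoxd9 and Hoxd10.

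Old and young muscle differed at 3 neighbouring genes of HoxD. At Hoxd8, Hoxd9 and Hoxd10 each old sample stood above each young sample, by 6.93-fold to 10.4-fold for Hoxd8 and by 10.4-fold to 26.9-fold for Hoxd9 within the like-scale pairs. None of the other 15 expressed Hox values separated the ages. Over all 10266 genes tested, 1.61% had both old samples above both young samples and 1.93% had both below. Hoxd9 and Hoxd10 counted as expressed through the old samples alone, so the count of 3 is a description and no test. The 3 genes lie next to each other on chromosome 2 (mm10), Hoxd10 at chr2:74691891-74695106, Hoxd9 at chr2:74697763-74700208 and Hoxd8 at chr2:74703078-74707934. Their promoters are printed because these are the Hox genes on which the ages differed.

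The sequences are from RefSeq on GRCm38.p6, the assembly of mm10, and run from 250 bases before the annotated start to 50 bases into the transcript on the plus strand. Of the 39 Hox symbols, 22 had a promoter in this set. Capitals mark each match to a GC box (GGGCGG or its reverse complement CCGCCC) or a CCAAT box (CCAAT or ATTGG). The windows are chr2:74691641-74691940 for Hoxd10, chr2:74697513-74697812 for Hoxd9 and chr2:74704365-74704664 for Hoxd8, the last of which starts inside the listed Hoxd8 locus.
Hoxd10: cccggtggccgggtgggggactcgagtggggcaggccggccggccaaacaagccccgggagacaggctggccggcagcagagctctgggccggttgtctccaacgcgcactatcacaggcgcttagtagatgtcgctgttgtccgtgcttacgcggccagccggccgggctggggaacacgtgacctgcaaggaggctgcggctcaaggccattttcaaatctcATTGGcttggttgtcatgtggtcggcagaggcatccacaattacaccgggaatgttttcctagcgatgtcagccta
Hoxd9: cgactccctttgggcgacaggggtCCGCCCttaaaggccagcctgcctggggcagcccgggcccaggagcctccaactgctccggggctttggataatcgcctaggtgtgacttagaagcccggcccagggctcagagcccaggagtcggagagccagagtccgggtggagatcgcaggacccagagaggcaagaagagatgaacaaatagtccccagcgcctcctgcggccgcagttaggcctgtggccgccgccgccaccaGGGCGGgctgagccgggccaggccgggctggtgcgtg
Hoxd8: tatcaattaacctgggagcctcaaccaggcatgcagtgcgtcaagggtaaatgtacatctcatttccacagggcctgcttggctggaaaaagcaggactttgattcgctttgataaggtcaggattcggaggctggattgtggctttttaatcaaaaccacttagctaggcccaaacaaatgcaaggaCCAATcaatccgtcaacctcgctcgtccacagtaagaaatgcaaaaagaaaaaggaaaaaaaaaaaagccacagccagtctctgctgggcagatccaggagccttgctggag
The windows held 22 CpG dinucleotides at Hoxd10, 20 at Hoxd9 and 6 at Hoxd8, against a median of 7 over 32851 mouse promoters of 300 bases. The Hoxd9 window held 2 GC boxes, a motif found in 35.7% of all promoters, and the Hoxd10 and Hoxd8 windows held 1 CCAAT box each, a motif found in 37.4%. No window held the TATA box letters TATAAA (in 13.6% of promoters) or TGATNNAT, the letters bound by a Hox protein with its partner Pbx (in 8.85%), on either strand. These matches describe letters and do not show binding.

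Hoxd8 is a gene of the middle of the HoxD cluster. The old samples were at 38.8 FPKM (Old 1) and 11.3 FPKM (Old 2), the young samples at 1.09 FPKM (Young 1) and 5.59 FPKM (Young 2). The lowest old value was thus above the highest young value, although Old 2 belongs to the samples of lower scale. The value sums 2 loci with the same coordinates. The first was at 29.8, 11.3, 1.09 and 3.23 FPKM in the order Old 1, Old 2, Young 1 and Young 2, and the second at 8.94, 0, 0 and 2.36. Whether the authors' counting used the strand is not stated, so reads of overlapping transcripts at this locus cannot be told apart. The first locus alone also had both old values above both young values.

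Hoxd9, one of the 4 group 9 paralogs, was listed at 10.1 and 3.74 FPKM in Old 1 and Old 2, against 0.139 and 0.973 in Young 1 and Young 2. Both old samples reached 1 FPKM and both young samples fell short of it. Hoxd10, the HoxD member of group 10, was listed at 4.07 and 1.12 FPKM in Old 1 and Old 2. It was listed at 0 in Young 1 and at 0.0954 FPKM in Young 2, so that a ratio could be given only for Old 1 to Young 2 (42.7). Hoxd9 and Hoxd10 passed the filter of 1 FPKM through the old samples alone, so that genes of this kind could enter the test only by being high in old muscle, and their tests and calls are a description.

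In the limma test on log2(FPKM + 1) as deposited (n = 2 per age, all 4 samples in 1 fit), old minus young was 2.58 (SE 0.96) for Hoxd8, 2.27 (SE 1.01) for Hoxd9 and 1.65 (SE 1.02) for Hoxd10, the last a value that depends on the pseudocount since Young 1 is listed at 0 (4.01 with a pseudocount of 0.1). None passed, with an adjusted p of 1.00 each. Of the 18 Hox values tested, 0 were called by limma in either direction, and 2 (Hoxd8 and Hoxd9) had an unadjusted p below 0.05. The median over the 18 Hox values was 0.13 and over all genes -0.01. Over all genes, 0.175% were called higher and 0.127% lower in old muscle. In this fit the error of each gene holds the difference in scale between samples of one age. Scaling each sample to the same median FPKM gave 2.64 (SE 0.42) for Hoxd8, 2.34 (SE 0.22) for Hoxd9 and 1.62 (SE 0.29) for Hoxd10. The adjusted p from limma was then 0.0477, 0.0291 and 0.0552, so that Hoxd8, which reached 1 FPKM in all 4 samples, was called, Hoxd9 also fell below the threshold, and Hoxd10 did not. With this scaling 5.06% of all genes were called higher and 7.5% lower. With the like-scale pairs as a block in place of scaling, limma called Hoxa4, Hoxc9, Hoxc10, Hoxd8 and Hoxd9 higher and 0 Hox genes lower, while it called 27.4% of all genes higher and 32.9% lower. With only 2 samples per age, the smallest two-sided p of an exact permutation test is 0.333.

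The size of the difference was also described pair by pair, on the same 4 values and in pairs that were themselves chosen from the values, so that it is no separate support. Within each like-scale pair, Hoxd8 differed by 2.59 and 2.56 on the log2(FPKM + 1) scale, Hoxd9 by 2.49 and 2.06, and Hoxd10 by 2.21 and 1.08. These 3 were the Hox genes that were at least 1 higher in old muscle in both pairs, and 0 were at least 1 lower. Among all tested genes, 0.857% were higher and 1.58% lower by this measure. Ranked by the smaller of the 2 pair differences over 10266 genes, Hoxd8 was at 19, Hoxd9 at 26 and Hoxd10 at 79.

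**Figure D2:**
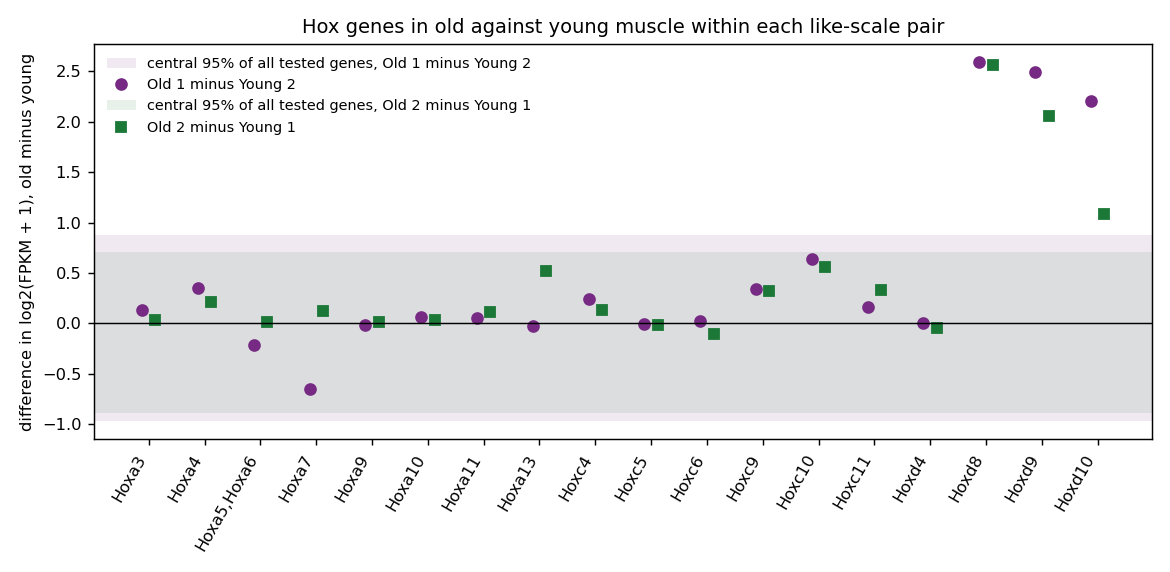
Difference between old and young on the log2(FPKM + 1) scale (y axis) for the 18 Hox values tested (x axis), with circles for Old 1 minus Young 2 and squares for Old 2 minus Young 1. The shaded bands hold the central 95% of all 10266 tested genes in each pair (-0.97 to 0.88 and -0.89 to 0.71), and Hoxd8, Hoxd9 and Hoxd10 lie above both bands while the other 15 values lie within them.

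Of the genes on either side of these 3, none had both old samples above both young samples. On the side of Hoxd10, Hoxd11, Hoxd12, Hoxd13 and the neighbouring homeobox gene Evx2 were listed at 0 in all 4 samples. On the side of Hoxd8, Hoxd4 was at 1.34, 0.383, 0.428 and 1.33 FPKM in Old 1, Old 2, Young 1 and Young 2. Its values followed the scale of the samples and not their age, with a difference of 0.01 and -0.05 within the like-scale pairs. Hoxd3 was at 0.799 and 0.276 FPKM in Old 1 and Young 2 and listed at 0 in the other two samples. Hoxd3, Hoxd4, the microRNA gene Mir10b and an antisense transcript (1700109F18Rik) are listed with the same coordinates, so their values are uncertain. Beyond the cluster, Lnp was at 22.6, 11.8, 13.9 and 26.6 FPKM in the same order and Mtx2, a mitochondrial import gene, at 27.8, 13.8, 17.2 and 34.0. Both flanking genes were lower in the old sample of each like-scale pair.

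**Figure D3:**
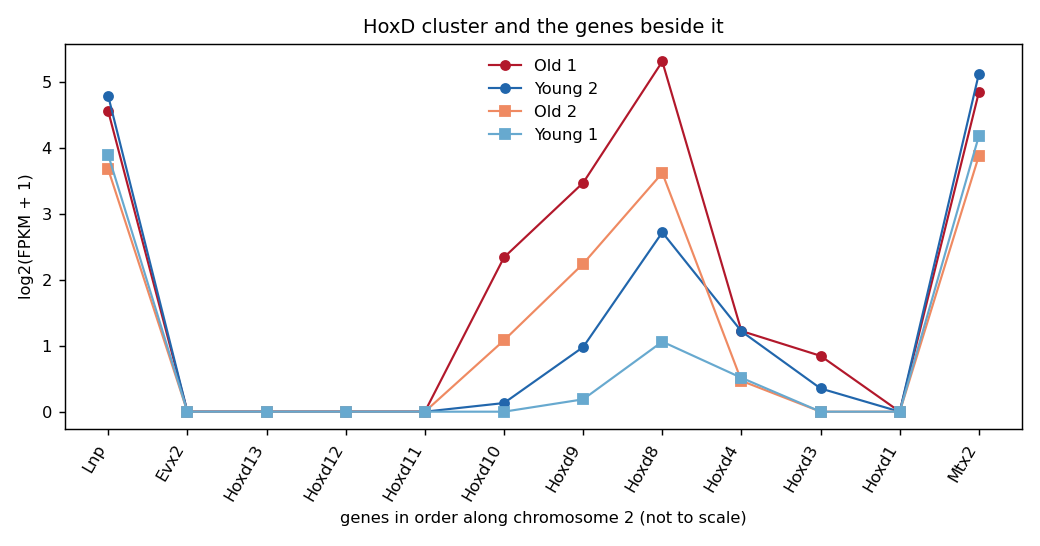
Levels on the log2(FPKM + 1) scale (y axis) of the HoxD genes and the genes beside them in their order along chromosome 2 (x axis, not to scale), with 1 line per sample. The old lines (red and orange) stand above the young lines (blue) at Hoxd10, Hoxd9 and Hoxd8, and at Lnp, Hoxd4 and Mtx2 the lines group by the scale of the sample.

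The HoxC cluster held Hoxc10, the Hox gene with the highest level in every sample, and none of its genes separated the ages. Hoxc10, known for its use in the hindlimb, was at 54.8 and 28.7 FPKM in Old 1 and Old 2 and at 19.2 and 34.7 in Young 1 and Young 2. The ages overlapped as deposited, but the old value was higher in both like-scale pairs, by 1.58-fold and 1.49-fold. Old minus young was 0.60 (SE 0.93, adjusted p = 1.00, limma) as deposited and 0.61 (SE 0.12, adjusted p = 0.0664, limma) after median scaling, so that it passed in neither. It was called with the like-scale pairs as a block (adjusted p = 0.00759, limma), as was Hoxc9 (adjusted p = 0.00892, limma). That fit called 27.4% of all genes higher, with pairs chosen from the values, so these 2 calls do not set the genes apart. Hoxc10 ranked 414 by the smaller pair difference.

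Hoxc11, its neighbour and a lower-leg gene of group 11, was at 11.1, 4.11, 3.07 and 9.77 FPKM in Old 1, Old 2, Young 1 and Young 2. Hoxc9 was at 7.29, 2.32, 1.65 and 5.53 FPKM in the same order, the sum of 2 loci with the same coordinates. Both genes were above their young partner in both pairs, Hoxc11 by 1.13-fold and 1.34-fold and Hoxc9 by 1.32-fold and 1.40-fold, without separating the ages. Hoxc4, of the anterior end of the cluster, was at 3.63, 1.37, 1.16 and 2.93 FPKM. Hoxc6 was at 3.26, 0.879, 1.02 and 3.18, and Hoxc5 at 1.39, 0.388, 0.399 and 1.40. These last 2 genes had nearly the same level in the old and the young sample of a pair. Over the 6 HoxC values tested, the median pair difference was 0.20 and 0.23 on the log2(FPKM + 1) scale. Hoxc8 stayed below 1 FPKM in all samples (0.129 to 0.784).

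Most genes of the HoxA cluster had nearly the same level at both ages. Hoxa10, the group 10 gene of this cluster, was at 16.05 and 7.79 FPKM in Old 1 and Old 2 and at 7.56 and 15.3 in Young 1 and Young 2. The ratio of old to young was 1.05 and 1.03 in the like-scale pairs, while that between samples of one age was 2.06 and 2.03. Hoxa9 was at 5.85, 2.58, 2.56 and 5.92 FPKM in Old 1, Old 2, Young 1 and Young 2, and Hoxa11 at 3.27, 0.928, 0.783 and 3.11. The ratios of old to young within the pairs were 0.989 and 1.01 for Hoxa9 and 1.05 and 1.18 for Hoxa11. Hoxa13, the gene of the digits and the only expressed member of group 13, was at 4.83, 1.68, 0.869 and 4.93 FPKM, with ratios of 0.980 and 1.94 that did not point the same way.

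Of the middle and anterior HoxA genes, Hoxa7 was at 10.2, 2.60, 2.31 and 16.6 FPKM in Old 1, Old 2, Young 1 and Young 2. Its locus is listed together with the non-coding RNA Mira, so that the value belongs to both. The old sample was lower in the first pair (0.616) and higher in the second (1.13). Hoxa3 was at 8.04, 0.487, 0.456 and 7.25 FPKM, the sum of 4 loci, and Hoxa4 at 3.73, 0.161, 0 and 2.72. The shared locus of Hoxa5 and Hoxa6 was at 2.14, 0.296, 0.284 and 2.64 FPKM. These genes were up to 23.1-fold higher in Old 1 than in Old 2, and their values grouped by the scale of the sample. Hoxa2, Hoxa3, Hoxa4 and the Hoxa5 and Hoxa6 locus all carry the same coordinates (chr6:52158491-52213597), so the division of reads among them is uncertain. Over the 8 HoxA values tested, the median pair difference was 0.02 and 0.08 on the log2(FPKM + 1) scale. Hoxa2 was listed at 0 in Old 2 and Young 1 and at 0.996 to 1.09 FPKM in the other samples.

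HoxB was the cluster of lowest expression. Its 8 genes with any value were at 0.337 to 1.205 FPKM in Old 1, 0 to 0.208 in Old 2, 0 to 0.190 in Young 1 and 0.278 to 0.935 in Young 2. The highest were Hoxb7 (1.205 FPKM) and Hoxb6 (1.19 FPKM), both in Old 1. Over the 7 HoxB genes above 0 in both samples of an age, the median ratio was 11.1 for Old 1 to Old 2 and 9.26 for Young 2 to Young 1. For the 3 Hox genes at 3 FPKM or more in all samples (Hoxa10, Hoxc10 and Hoxc11) these ratios were 2.06 and 2.03. Within the like-scale pairs, which were chosen from the values, old to young was 0.465 (Hoxb5) to 1.98 (Hoxb2) over the 7 HoxB genes. HoxB levels thus differed more between samples of one age than between the samples of a like-scale pair.

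The clusters were also compared by their share of the summed Hox FPKM in a sample. A share does not move with a factor common to all genes, but the scale of these samples differed more for low genes than for high ones, so shares also differed between samples of one age. HoxD held 27.7% and 23.1% in Old 1 and Old 2 and 3.79% and 6.34% in Young 1 and Young 2. The mean share was 25.4% ± 3.27 (SD, n = 2) in old and 5.07% ± 1.81 (SD, n = 2) in young muscle, a difference of 20.4 percentage points with no overlap between the ages. HoxA held 27.9% and 23.1% in old and 33.9% and 45.8% in young samples. These did not overlap either, and the old mean was lower (-14.3 percentage points). HoxC held 41.4% and 52.9% in old and 61.0% and 44.5% in young samples, which overlapped, as did HoxB (0.872% to 3.35%). The shares of a sample sum to 100%, so a rise of HoxD lowers the others. In summed FPKM, HoxD was at 55.1, 16.6, 1.66 and 8.27 in Old 1, Old 2, Young 1 and Young 2. The ratio of the summed FPKM of old to young within the pairs was 6.66 and 9.998 for HoxD, 1.42 and 1.42 for HoxC, and 0.930 and 1.12 for HoxA. Hoxd8 alone was at 38.8, 11.3, 1.09 and 5.59 FPKM in Old 1, Old 2, Young 1 and Young 2, while the pair ratios of Hoxd4 were 1.01 and 0.896. The HoxD share and ratio thus largely restate Hoxd8, Hoxd9 and Hoxd10 and are no separate result. Hoxc10 was the larger part of the HoxC sum in each sample.

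**Figure D4:**
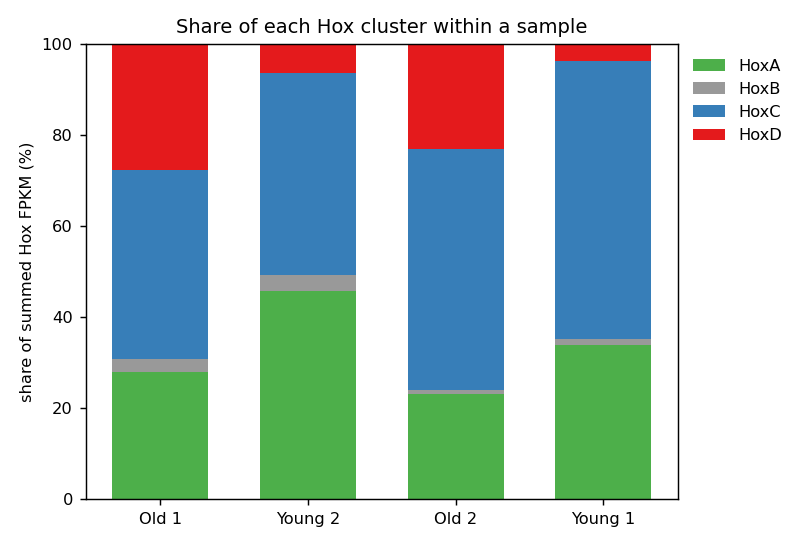
Share of each Hox cluster in the summed Hox FPKM (y axis, percent) within each sample (x axis), with the samples of a like-scale pair side by side. The HoxD part is 27.7% and 23.1% of the bar in the old samples and 6.34% and 3.79% in the young samples beside them.

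The order of the expressed Hox genes was compared between samples as a description. Across genes, which are not independent replicates, Spearman's rho of the 18 expressed values was 0.725 in the pair of Old 1 with Young 2 and 0.731 in that of Old 2 with Young 1. Between samples of one age rho was 0.878 (old) and 0.867 (young) over the same 18 values. Without Hoxd8, Hoxd9 and Hoxd10, which were taken out because they differed between the ages, rho over the other 15 values was 0.950 and 0.975 in the like-scale pairs and 0.825 and 0.839 between samples of one age. The rise within the pairs follows from that choice. In both old samples Hoxd8 was the second highest Hox gene after Hoxc10, with 19.5% and 15.8% of the Hox sum. In the young samples it held 2.49% and 4.29%, below Hoxc10, Hoxa10, Hoxc11, Hoxa7 and Hoxa9 in both. It was also below Hoxc9 and Hoxc4 in Young 1 and below Hoxa3 in Young 2.

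Genes that set the type of limb and its axes were looked at as a second record of position. Pitx1 and Tbx4, which mark the hindlimb, were low in every sample. Pitx1 was at 0.305 and 0.466 FPKM in Old 1 and Young 2, at 0.0726 in Young 1 and listed at 0 in Old 2. Tbx4 was at 0.738, 0.136, 0.502 and 1.61 FPKM in Old 1, Old 2, Young 1 and Young 2, with the lower value in the old sample of each pair. Tbx5, the forelimb gene, did not exceed 0.0558 FPKM and was listed at 0 in Old 2 and Young 1. The member with the highest level was Tbx15, which takes part in setting muscle fiber type, at 109, 54.4, 56.1 and 112 FPKM, with a difference of -0.03 and -0.04 in the pairs. Of the 20 genes of the list, 18 had a value and 4 were tested, and limma called 0 in either direction (0 at an unadjusted p below 0.05, and 0 called after median scaling). The median difference of the 4 was -0.01, as over all tested genes (-0.01). One member outside the rule, chosen after its values were seen, was En1, a gene of the ventral limb bud. It was at 2.13 and 0.555 FPKM in Old 1 and Old 2 and at 0.00730 and 0.216 in Young 1 and Young 2, and was too low to be tested.

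The proteins that work with Hox proteins or keep Hox clusters silent showed no call as deposited. Of 9 genes for Pbx, Meis and Pknox cofactors, 7 had a value, 5 were tested and limma called 0 (0 at an unadjusted p below 0.05, and 0 called after median scaling). The one with the highest mean was Pbx2, at 6.00, 2.75, 3.07 and 6.55 FPKM in Old 1, Old 2, Young 1 and Young 2. Of 26 genes for Polycomb and Trithorax proteins, which hold Hox genes off or on, 22 had a value, and of the 19 values tested limma called 0 (0 at an unadjusted p below 0.05), with a median difference of 0.18. The symbol Mll2 stood for both Kmt2b and Kmt2d among these. Rbbp4, a histone-binding subunit, had the highest mean, at 27.7, 12.97, 14.1 and 30.3 FPKM. After median scaling, limma called 1 Polycomb gene higher in old muscle, Cbx7 (0.39 as deposited, adjusted p = 0.0455 after scaling), and 1 lower, Phc2 (-0.55 as deposited, adjusted p = 0.0297 after scaling). Of all genes 5.06% were called higher and 7.5% lower with this scaling, so that 1 of 19 in each direction is near the background. Of 19 non-coding and homeobox neighbours inside the clusters, 13 had a value, 8 of them listed at 0 in all samples, and limma called 0 of the 3 tested (0 at an unadjusted p below 0.05). The neighbour with the highest value was the locus shared by Hoxa7 and Mira.

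Markers of fiber and cell types that moved with age stand here beside the Hox values. Of the marker lists, the slow fiber list had the largest ratio. The 6 slow fiber genes summed to 1171 and 421 FPKM in Old 1 and Old 2 and to 27.9 and 74.7 in Young 1 and Young 2, a ratio of 15.7 and 15.1 in the like-scale pairs. Of these 6, limma called 5 higher in old muscle as deposited, against 0.175% of all genes (Myh7, Tnnt1, Myl2, Tnnc1 and Tnni1), by 3.59 to 4.39 on the log2(FPKM + 1) scale (adjusted p of 0.00148 to 0.0479), and Myh7b, at 0 to 3.45 FPKM, was not called. Each of the old samples thus had more HoxD and more slow fiber RNA than each young sample, and the part of the slow fiber genes in the HoxD result was not tested. In bulk tissue, more cells of a type and more RNA per cell cannot be told apart. Among 11 skeletal muscle genes with a value, of 12, 10 were tested. Limma called Tnnt3 and Ttn lower as deposited, against 0.127% of all genes. Both were listed at 0 in the old samples, which may be failed estimates as for Ckm, so these calls are not read as a loss with age. Neb was listed at 0 in Old 2 and Young 1.

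Fibroblast markers, listed because Hox genes are used in limb connective tissue, did not move as 1 group. The 8 fibroblast genes summed to 256, 131, 213 and 417 FPKM in Old 1, Old 2, Young 1 and Young 2, a ratio of 0.615 in both pairs, and limma called 0 as deposited (1 at an unadjusted p below 0.05, Col1a1) and 4 lower after median scaling, where 7.5% of all genes were called lower. Col1a1, Col1a2, Col3a1 and Ly6a were at least 1 lower on the log2(FPKM + 1) scale in both pairs. On this scale the old minus young values of Dcn were 0.30 and 0.28 in the pairs and those of Pdgfra, a fibro-adipogenic marker, 0.16 and 0.13. The remaining members were lower in both pairs, Cd34 by -0.40 and -0.40 and Lum by -0.20 and -0.17. The summed tendon genes had ratios of 0.810 and 0.653, Schwann cell genes 0.678 and 0.651, and satellite cell genes 0.830 and 0.832. The satellite cell sum was mostly Myod1 (13.7 of 16.3 FPKM in Old 1), while on the log2(FPKM + 1) scale the old minus young values of Pax7 were 0.09 and 0.02 and those of Myf5 0.14 and 0.10. In the tendon list Scx was at 14.7 FPKM in Old 1 and 8.77 in Young 2, and was listed at 0 in the other samples. Of the skin genes, the keratins Krt5, Krt14 and Krt1 were listed at 0 in all samples, Dsp did not exceed 0.00890 FPKM, and Trp63, an epithelial factor, was at 9.95 and 4.49 FPKM in old and 1.26 and 3.24 in young samples. The summed skin list had ratios of 2.55 and 2.97. Of 6 cartilage and bone genes none reached the filter, and their sum did not exceed 1.80 FPKM. The part of these cell types in the HoxD result was not tested.

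**Figure D5:**
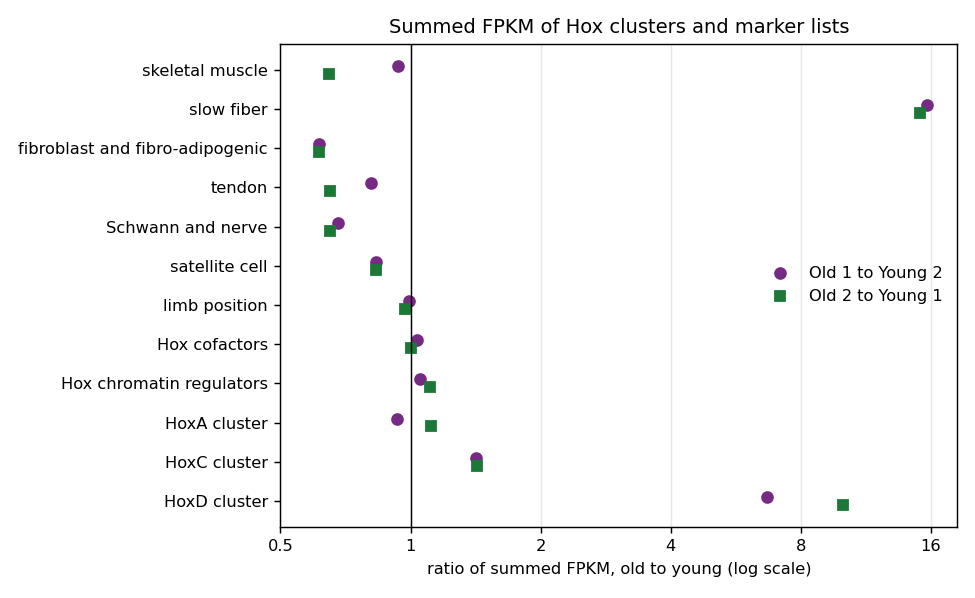
Ratio of summed FPKM of old to young (x axis, log scale) for marker lists, Hox-related lists and Hox clusters (y axis), with circles for Old 1 to Young 2 and squares for Old 2 to Young 1. The slow fiber list (15.7 and 15.1) and the HoxD cluster (6.66 and 9.998) lie far to the right of 1, while the fibroblast list (0.615) lies to the left and HoxA and the limb position list lie near 1. Not drawn are HoxB, the cluster neighbours, the cartilage and bone list and the skin list (2.55 and 2.97).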

How the data were processed

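mRNA of TA muscle from 2 old and 2 young samples was sequenced on an Illumina instrument. Per the labels and the methods of the study, the authors trimmed and deduplicated the reads, aligned them to mm10 with TopHat2 2.0.10 and deposited FPKM per RefSeq locus from Cufflinks, with Cuffdiff 2.1.1 named in the processing notes. Groups and sample numbers were taken from the sample titles. Counts are not part of the deposited FPKM values, so neither the depth nor a counting error can be given. The kit is called stranded in the methods and not in the labels, and the use of strand in counting is not given in the sources used here. In each sample 1 incomplete last line was left out. One member enters the sums and counts but is otherwise not reported here. Listed locus starts count from 0 and are given here from 1.

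Loci of one symbol were summed, and log2(FPKM + 1) was tested with limma 3.58.1 in R 4.3.3 (trended eBayes, two-sided, adjusted p below 0.05 by Benjamini-Hochberg). All 10266 genes that reached 1 FPKM in 2 or more samples entered the fit, and the code was tested on simulated data. Shares, ratios and figures were computed with Python 3.11.15, pandas 2.3.3 and matplotlib 3.10.9. The named genes are all expressed Hox genes, Pitx1, Tbx4 and Tbx5, and of each other list the members called or else the one with the highest mean FPKM. The Hox genes, the lists and the like-scale pairs were chosen with earlier results of these data known, and support nothing on their own. Alternatives were other pseudocounts, filters, scalings and blocks, and leaving out each sample.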

Additional observations from a re-analysis of the deposited data

How the results depend on the processing

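The higher levels of Hoxd8, Hoxd9 and Hoxd10 in old muscle kept their direction under every alternative run, from 2.53 to 3.02, 2.23 to 3.63 and 1.41 to 4.01 on the log2 scale (the ratio to Hoxa10 within a sample, chosen after seeing the data, included), and from 1.73 to 3.42, 1.66 to 2.89 and 1.02 to 2.28 without 1 sample. At these 3 genes both old values lay above both young values as deposited. Leaving out 1 sample, or changing the pseudocount or block, therefore could not turn the sign and is no separate support. For the other 15 values except Hoxc10 (0.14 to 1.05), leaving out 1 sample turned the sign, because the remaining samples differ in scale. As deposited limma called 0 Hox genes. Of the 18 Hox values tested, it called 2 higher with median scaling, 2 with quantile normalization, 5 with crossed pairs as a block and 8 with that block after median scaling. Hoxd9, called in each of these settings, and Hoxd10, called in the last, passed the filter through the old samples alone. The calls over all 10266 genes in the same settings follow. Over all genes, in place of 18 higher and 13 lower, limma called 4 and 2 among genes that reached 1 FPKM in every sample, 519 and 770 with median scaling, 119 and 188 with quantile normalization, 3204 and 3521 with median scaling and the crossed block, and 2 to 6 and 3 to 10 without 1 sample. With the labels' numbering as a replicate block it called 2 and 3, and 0 Hox genes. Same-numbered samples deviated in opposite directions (r = -0.885 over 10266 genes). With 2 samples per age, the crossed pairs have the same r with the sign turned. This r thus restates the difference in scale, and it cannot tell whether equal numbers mark a pair. The crossed pairing called 2812 and 3374 genes. The limb position, cofactor and chromatin lists had 4, 5 and 19 values tested, and the value shared by Kmt2b and Kmt2d was counted for each. Of these genes, 1 was called higher and 1 lower with median scaling, 10 and 9 with the crossed block, and 11 and 9 with both. Over all genes, 5.06% were called higher and 7.5% lower with median scaling. With the crossed block these shares were 27.4% and 32.9%. Hox genes counted as expressed were 31 at 0.1 FPKM and 8 at 1 FPKM in all samples. The HoxA share differed by -20.3 to -8.38 percentage points without 1 sample, and the HoxD share by 18.05 to 22.7. The crossed pairs are known from the values and not from the labels, and 2 samples per age with unknown depth limit every comparison.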
